A study of Mus musculus with 12 samples.

Results

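The collagen genes described here were the protein-coding genes on chromosomes 1 to 19 whose symbol is Col, a type number, the letter a and a chain number. This symbol rule gave 42 of the 20807 protein-coding genes that GENCODE M21 places on the autosomes of the mouse genome build GRCm38 (mm10). They were divided by the kind of assembly they form into 11 fibrillar collagens, 7 network-forming collagens (types IV, VIII and X) and 24 other collagens. A further 2 collagen genes, Col4a5 and Col4a6, lie on chromosome X and were outside the rule. H3K27me3 had been mapped by chromatin immunoprecipitation and sequencing (ChIP-seq) in iMEF cells, an immortalized line of fibroblasts from mouse embryos. In these cells the floxed exon 4 of the endogenous Ash2l gene had been excised by a tamoxifen-inducible Cre recombinase, and ASH2L, a core subunit of the complexes that methylate H3K4, was supplied from a lentiviral construct as human ASH2L fused to FKBP12 F36V. The compound dTAG links this fusion protein to the ubiquitin machinery of the cell and thereby leads to its degradation. The untreated controls (2 libraries) carried this deletion and this fusion construct too. The dTAG treatment lasted 16 h, 24 h or 48 h, with 2 libraries per time, and the 4 input libraries were divided equally between controls and the 48 h treatment. Cells had been cloned by limiting dilution after the deletion, and the histone mark was followed in the clone NG3 alone, so that differences between clones are not covered.

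The values analysed were the positions of the 101389 H3K27me3 sites found over the H3K27me3 libraries together, of which 96090 lay on the autosomes. A site is a stretch of the genome called as enriched for the mark. The list holds no value of a single library and no read count. The depth behind a site is therefore unknown here, no replicate error can be given, and no time point can be compared with another. The paper also names a list of sites that changed at each time point, which was not used here. A site may have been called from untreated cells, treated cells or both, so the text gives positions and counts without a test. Sites on the autosomes were 200 bp wide or more, with a median of 687 bp. A gene was scored by whether a site lay within 1 kb of any of its annotated transcription start sites (TSSs) and by the percent of its body, from gene start to gene end, that lay inside sites.

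Collagens are extracellular proteins whose chains wind into triple helices. Fibrillar collagens assemble into the banded fibrils of skin, tendon, bone and cartilage, network-forming collagens build basement membranes and other sheets, and further collagens decorate fibrils, form beaded filaments or sit in the plasma membrane. Fibroblasts are the main producers of types I, III, V and VI, whereas types II, IX, X and XI are best known from cartilage. H3K27me3 is deposited by Polycomb repressive complex 2 and is found at silent developmental genes, often at CpG-rich promoters, where it can spread over long domains.

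The label of the cells as fibroblasts could not be checked by expression, since the list holds none. Of 8 fibroblast marker genes, Pdgfra was the only gene with a site near a TSS (810 bp), and Vim, Pdgfrb, Thy1, Twist1, Twist2, Prrx1 and S100a4 had none. Of 7 markers of other cell types, the epithelial genes Epcam and Cdh1 had one, with sites of 3410 bp and 2916 bp. Krt8, Krt18, Pecam1, Cdh5 and Ptprc had none. These shares (12.5% and 28.6%) stand against 26.9% of all autosomal protein-coding genes, so the count over the other markers was near that of any gene, and the lists do not settle the identity of the cells.

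The start regions of 6 collagen genes are printed to show sequences with and without a called site. They are the 250 bases directly before the RefSeq start site on GRCm38.p6, read 5′ to 3′ on the strand of the gene, with CG dinucleotides in capitals. The first 4 belong to the members with the widest site at a TSS in their class that had a RefSeq window (Col27a1, Col8a2 and Col13a1), and to Col4a4, whose start region was shared with Col4a3. Col1a2 and Col5a1 had no site near a TSS, and Col5a1 was chosen after its values were seen because its start region was CpG-rich.
Col27a1: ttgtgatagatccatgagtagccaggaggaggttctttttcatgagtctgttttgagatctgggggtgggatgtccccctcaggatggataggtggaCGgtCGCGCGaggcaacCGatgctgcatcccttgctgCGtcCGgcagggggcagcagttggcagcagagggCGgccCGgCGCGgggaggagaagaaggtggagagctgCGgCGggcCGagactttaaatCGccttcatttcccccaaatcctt
Col8a2: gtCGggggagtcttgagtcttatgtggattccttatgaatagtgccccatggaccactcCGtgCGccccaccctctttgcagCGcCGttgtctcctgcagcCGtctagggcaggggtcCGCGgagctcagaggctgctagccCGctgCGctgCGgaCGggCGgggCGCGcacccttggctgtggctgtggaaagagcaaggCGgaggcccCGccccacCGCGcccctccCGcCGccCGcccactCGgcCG
Col4a4: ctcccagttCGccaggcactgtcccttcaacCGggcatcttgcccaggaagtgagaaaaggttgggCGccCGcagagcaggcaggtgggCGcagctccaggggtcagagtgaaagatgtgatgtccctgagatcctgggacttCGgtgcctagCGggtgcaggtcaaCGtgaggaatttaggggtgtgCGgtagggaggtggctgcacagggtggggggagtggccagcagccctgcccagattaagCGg
Col13a1: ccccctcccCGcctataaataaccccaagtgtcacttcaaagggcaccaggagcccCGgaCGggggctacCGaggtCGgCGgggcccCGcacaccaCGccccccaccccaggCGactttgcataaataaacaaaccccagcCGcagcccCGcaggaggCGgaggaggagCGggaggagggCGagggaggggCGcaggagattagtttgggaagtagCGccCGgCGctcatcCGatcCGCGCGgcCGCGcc
Col1a2: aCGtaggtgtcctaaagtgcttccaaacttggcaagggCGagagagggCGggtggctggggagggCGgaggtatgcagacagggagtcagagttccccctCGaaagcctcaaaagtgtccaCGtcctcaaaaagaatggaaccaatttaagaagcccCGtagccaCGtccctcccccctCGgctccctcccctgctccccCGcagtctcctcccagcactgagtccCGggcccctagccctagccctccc
Col5a1: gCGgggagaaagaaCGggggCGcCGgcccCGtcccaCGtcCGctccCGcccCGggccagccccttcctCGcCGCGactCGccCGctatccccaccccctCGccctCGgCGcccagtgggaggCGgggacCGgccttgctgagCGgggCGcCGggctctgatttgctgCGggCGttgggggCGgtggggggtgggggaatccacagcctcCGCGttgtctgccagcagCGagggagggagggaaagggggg
These windows were chr4:63215162-63215411 (plus strand), chr4:126286544-126286793 (plus strand), chr1:82586850-82587099 (minus strand), chr10:61979109-61979358 (minus strand), chr6:4505368-4505617 (plus strand) and chr2:27886175-27886424 (plus strand). The windows of Col8a2, Col4a4 and Col13a1 lay inside a site with all 250 bases. Of the Col27a1 window, 24 bases lay in a site, which ended 227 bp before the RefSeq start. The windows of Col1a2 and Col5a1 held no base of a site, and the nearest sites were 114500 bp and 119735 bp from their RefSeq starts. The number of CG dinucleotides was 15 in Col27a1, 24 in Col8a2, 10 in Col4a4, 24 in Col13a1, 11 in Col1a2 and 28 in Col5a1. Among 31387 windows of the same length at autosomal genes in the RefSeq table, the median was 6, and 92.4% held at least 1 CG. As many CG dinucleotides as in Col5a1, or more, were found in 7.85% of all windows.

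A site within 1 kb of a TSS was found at 21 of the 42 collagen genes (50%), against 26.9% of all autosomal protein-coding genes. The classes differed in this count. Among fibrillar collagens, 2 of 11 (18.2%) had such a site, among network-forming collagens 3 of 7 (42.9%), and among the other collagens 16 of 24 (66.7%). Median gene length was 45.0 kb in fibrillar, 130.5 kb in network-forming and 106.2 kb in other collagens. The classes were not compared at like length. Counted by the 5′-most TSS of each gene alone, 19 collagen genes had a site, against a background of 24.2%. Collagen genes are long (median 110.9 kb, against 17.6 kb for all genes), and long genes had sites more often: of genes of at least 50 kb, 35.2% had a site near a TSS, as had 16 of the 27 collagen genes of that length (59.3%). No test was made of these differences, because genes are not replicates of the cells and the list has a single pooled value per position.

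Each of the 21 genes had at least 1 TSS inside a site, so none rested on the 1 kb margin. The gene without a site that came closest to the limit was Col24a1, a fibrillar collagen of bone, with a site of 200 bp at 1574 bp from a TSS. It was followed by Col9a3 at 5239 bp and Col6a3 at 8018 bp. Distances given here and below are the smallest over all TSSs of a gene unless the 5′-most TSS is named. Over all 21 genes without a site near a TSS, the distance from a TSS to the nearest site ranged from 1574 to 2075850 bp (Col11a1), with a median of 37423 bp. Of these genes 18 had no covered base anywhere in the body.

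**Figure D1:**
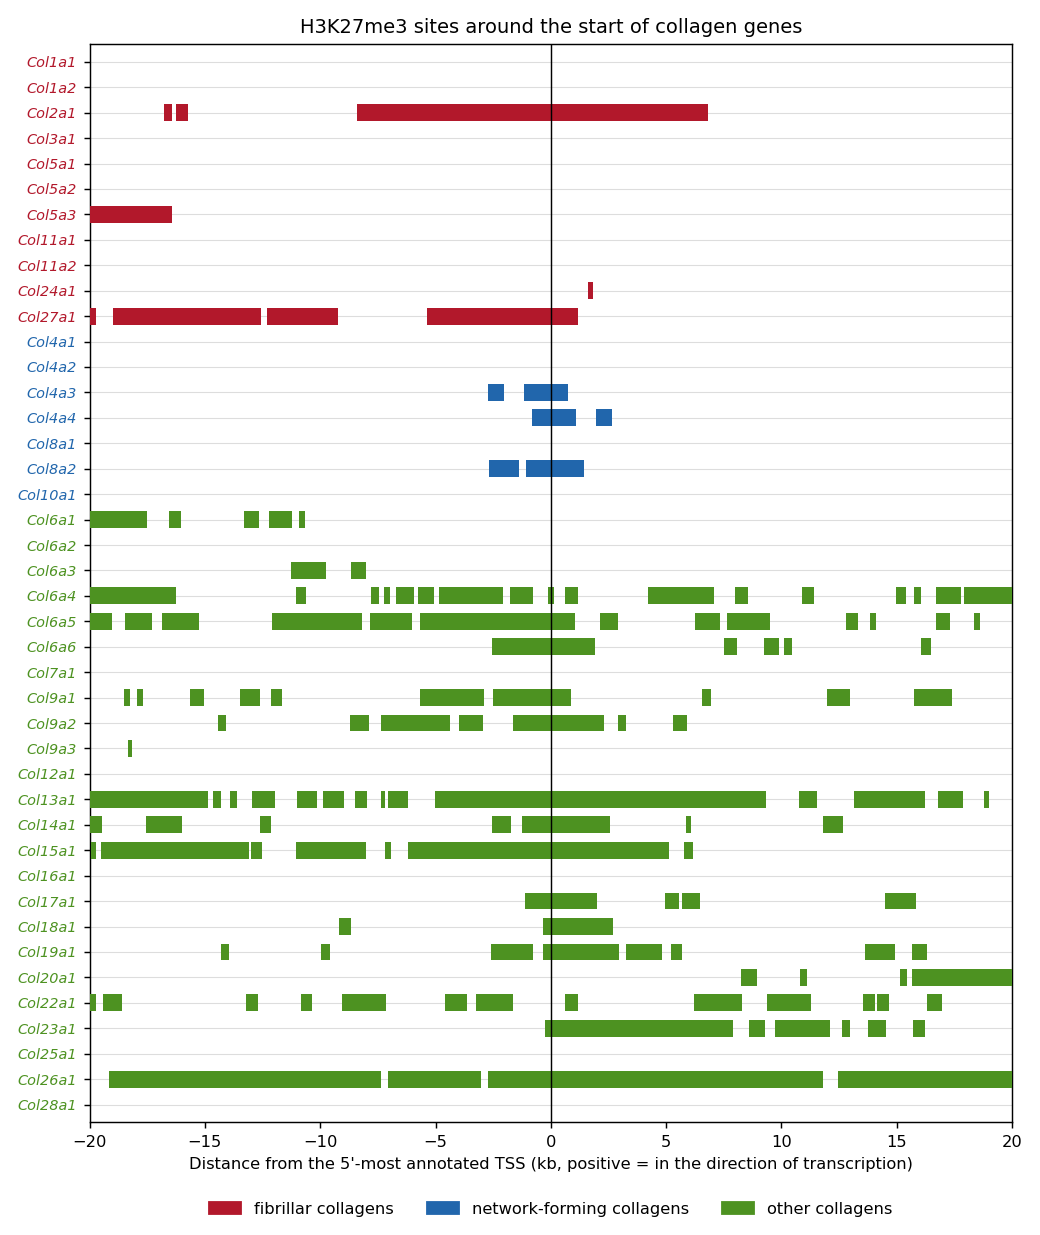
Positions of H3K27me3 sites (bars) within 20 kb of the 5′-most annotated TSS of each of the 42 collagen genes, one gene per line, with distance in kb in the direction of transcription on the x axis and colour for the class. Of the 11 fibrillar genes only Col2a1 and Col27a1 had a bar over the start, whereas such bars were frequent among the 24 other collagens, and Col20a1 and Col25a1 had their sites at internal TSSs.

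The fibrillar collagens with a site were genes known from cartilage. Col2a1, which encodes the main fibril chain of cartilage, lies at chr15:97975602-98004695 on the minus strand and had 1 site of 15197 bp (chr15:97997892-98013088). This site reached from 8393 bp before the 5′-most TSS to 6803 bp into the gene and contained 7 of its 9 annotated TSSs. It covered 23.4% of the gene body, 50.8% of the exon bases and 10.6% of the intron bases. Col27a1, a fibrillar collagen of developing cartilage (chr4:63214004-63334991, plus strand), had 1 site of 6559 bp (chr4:63208627-63215185) that lay mostly upstream, with 5377 bp before the 5′-most TSS. Its gene body was covered to 0.977%, but the 50 kb upstream to 77.6%. The remaining 9 fibrillar genes had no site at a TSS: Col1a1, Col1a2, Col3a1, Col5a1, Col5a2, Col5a3, Col11a1, Col11a2 and Col24a1. Of these 8 had no covered base, and Col24a1 had the 200 bp named above. Other fibrillar collagens of cartilage had no called site near a TSS, Col11a1 with the nearest site 2075850 bp from a TSS and Col11a2 with the nearest at 8148 bp.

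None of 8 chief collagens of fibroblast matrix had a site near a TSS, against 26.9% of all autosomal protein-coding genes. This list was chosen with earlier results known, and of type VI it holds Col6a1, Col6a2 and Col6a3 but not Col6a4, Col6a5 and Col6a6, which had such sites. The count held for Col1a1 and Col1a2, the chains of type I collagen, with the nearest sites 73681 bp and 113696 bp away. Col3a1 and Col5a2 stand tail to tail on chromosome 1, and the 191.7 kb from the start of Col3a1 to the start of Col5a2, including 24.6 kb between them, held no covered base. Their nearest sites were 360119 bp and 421769 bp from a TSS. The distance to the nearest site was 42446 bp from an internal TSS of Col5a1 and 119735 bp from its 5′-most TSS. Col6a1, Col6a2 and Col6a3, which encode the common chains of the beaded filaments of type VI collagen, were closer to sites, at 10645 bp, 27458 bp and 8018 bp. Only Col6a2 of the 8 genes had covered bases, 106 bp at its end (0.380% of the body), and the 85.2 kb between Col6a2 and Col6a1 were covered to 1.49%.

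Among network-forming collagens, the paralogous gene pairs of type IV collagen differed. Col4a3 and Col4a4, whose chains belong to specialised basement membranes such as that of the kidney glomerulus, are transcribed away from each other on chromosome 1 with 71 bp between them. A single site of 1922 bp (chr1:82585750-82587671) covered this interval and the 5′-most TSSs of both genes. They count as 2 genes with a site but share 1 site. Inside the bodies, Col4a3 was covered to 1.76% (4 sites) and Col4a4 to 5.62% (8 sites). Col4a1 and Col4a2, whose chains are found in nearly every basement membrane, also start next to each other, on chromosome 8, with ends overlapping by 22 bp. Their span of 250.9 kb held no covered base. The nearest sites were 123969 bp and 123948 bp from the 5′-most TSSs, and 21974 bp and 36831 bp from internal TSSs. Col8a2, a short-chain collagen of the cornea and vessels, had a site of 2520 bp (chr4:126285708-126288227) over its 5′-most TSS and 5.21% of its body covered. Its partner Col8a1 was 636040 bp from a site. Col10a1, which marks hypertrophic cartilage, was 153218 bp from one.

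Among the other collagens, the genes of type VI were divided too. Col6a4, Col6a5 and Col6a6, the additional chains of type VI collagen, stand in a row on the minus strand of chromosome 9 and all had sites at a TSS. The 408.975 kb from Col6a6 to Col6a4 (chr9:105687809-106096783) held 88 sites that covered 25.2% of it. The body was covered to 32.8% in Col6a4 (30 sites), 20.4% in Col6a5 (27 sites) and 16.6% in Col6a6 (24 sites). At Col6a4 the 5′-most TSS lay in a small site of 276 bp, one of 7 narrow sites near its TSSs, while at Col6a5 and Col6a6 sites of 6693 bp and 4466 bp lay over it. Col7a1, which forms the anchoring fibrils of skin, had no site near a TSS (35979 bp) and no covered base.

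All 4 transmembrane collagens had a site at a TSS. Col13a1, found at neuromuscular junctions, had every one of its 6 TSSs near a site, and the site over the 5′-most TSS measured 14348 bp (chr10:61969799-61984146). A second site inside the gene was wider, with 20709 bp. Col23a1 had a site of 8157 bp (chr11:51289656-51297812) that began 264 bp before the TSS and reached 7892 bp into the gene. Col17a1, a hemidesmosome protein of keratinocytes, had a site of 3100 bp over its 5′-most TSS. Col25a1, known from neurons, had a site of 1882 bp at an internal TSS only (chr3:130180266-130182147), and its 5′-most TSS was 41066 bp from a site. Both multiplexins, which are collagens of the basement membrane zone, had a site over the 5′-most TSS, of 11296 bp in Col15a1 and of 3073 bp in Col18a1, the precursor of endostatin.

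Of the 9 fibril-associated collagens (FACIT), which bind to the surface of fibrils, 6 had a site at a TSS. Col9a1 and Col9a2, chains of the type IX collagen of cartilage, had sites of 3386 bp and 3980 bp over the 5′-most TSS. The chain Col9a3 had none near a TSS and 0.828% of its body covered, from 1 site of 202 bp. Col14a1 and Col19a1 had sites of 3787 bp and 3313 bp over the 5′-most TSS. Col22a1, known from muscle-tendon junctions, had a narrow site of 569 bp starting 622 bp after its 5′-most TSS and wider ones of 2518 bp and 9507 bp at internal TSSs. Col20a1 had its sites at an internal TSS, and its 5′-most TSS was 8265 bp from a site. Col12a1, which binds type I fibrils, and Col16a1 had none, with 79034 bp and 38712 bp to the nearest site. Of the remaining genes, Col26a1 had a site near each of its 11 TSSs, the widest with 21366 bp (chr5:136829105-136850470), and Col28a1 had none (37423 bp).

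In all, 39 different sites lay near a TSS of a collagen gene, with a median of 3073 bp and a range from 200 to 21366 bp. Of these 8 (20.5%) were at least 10 kb wide. For comparison, the 8028 different sites near a TSS of any autosomal protein-coding gene had a median width of 2588 bp, and 14.6% of them were at least 10 kb wide. Members contributed unequally to these 39 sites, since Col6a4 alone had 7 and Col26a1 had 6. Of the 8 wide sites, 4 were at Col26a1 and 2 at Col13a1, and without Col26a1, a choice made after seeing the data, 4 of 33 sites (12.1%) were at least 10 kb wide, below the 14.6% of all genes.

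Coverage of the gene body differed between the classes as well. At least 10% of the body lay in sites in 13 of 42 collagen genes, against 20.4% of all autosomal protein-coding genes. Of these 13 genes, 12 were other collagens and 1 was fibrillar (Col2a1). Among the 27 collagen genes of at least 50 kb the count was 9, against 16.4% of all genes of that length. The median gene body cover was 0.680% over all 42 members (95% order-statistic interval of the median 0 to 5.21%). It was 0 in the fibrillar and network-forming classes and 7.31% in the other collagens (0.380 to 20.4%). These intervals treat genes as independent draws and hold no replicate error. Cover of single genes ranged from 0 to 83.1%. Of all autosomal protein-coding genes 69.6% had no covered base, the 75th percentile was 2.95% and the 90th percentile 51.0%. Summed over the genes of a class, sites covered 0.783% of the fibrillar, 1.68% of the network-forming and 19.2% of the other collagen bases.

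**Figure D2:**
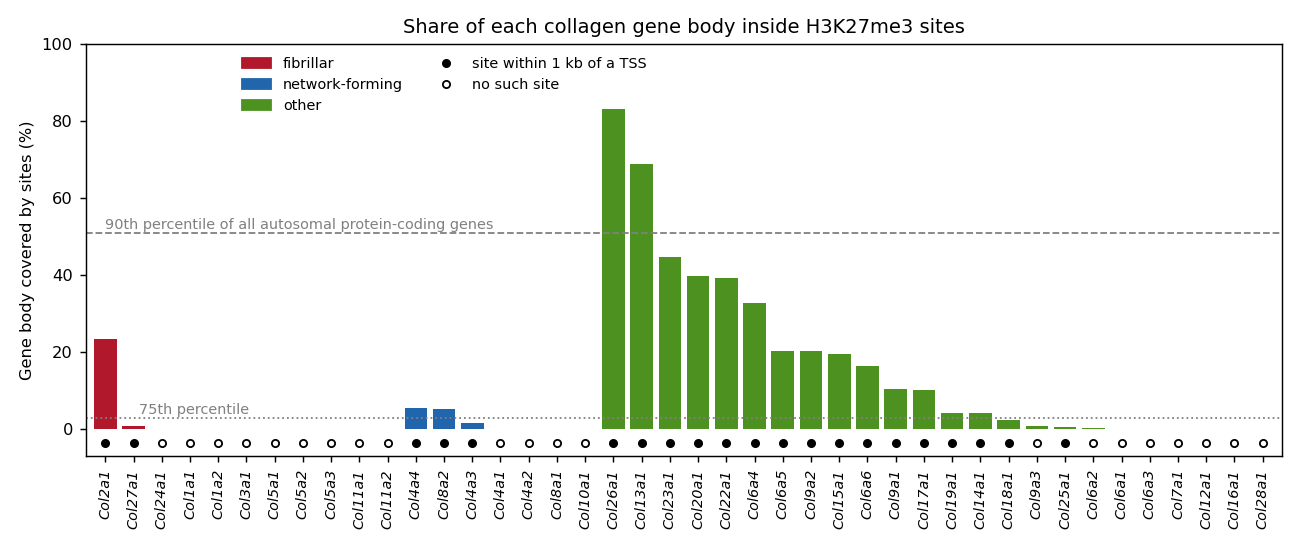
Percent of each collagen gene body inside H3K27me3 sites (bars, y axis), ordered within the 3 classes, with filled circles for genes with a site within 1 kb of a TSS, open circles for genes without, and grey lines for the 75th and 90th percentiles of all autosomal protein-coding genes. Col26a1 and Col13a1 stood above the 90th percentile of 51.0%, and the bars of most fibrillar and network-forming genes were at or near 0.

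The gene with the highest cover was Col26a1 (chr5:136741759-136883209, minus strand). Its 24 sites covered 117.6 kb of 141.5 kb (83.1%), a level reached by 5.44% of all autosomal protein-coding genes, and sites less than 3 kb apart joined to a stretch of 141.0 kb (chr5:136765664-136906674). Of this stretch 83.4% lay in the gene, the rest lay beyond the start of the gene, and the 3′ part of the gene was not in it. Col13a1 followed with 68.9% (97.0 kb, 26 sites). Col23a1 had the largest number of sites of any collagen gene and the most covered sequence, with 74 sites and 131.8 kb, which was 44.8% of its 294.0 kb. Col20a1 was covered to 39.7% and Col22a1 to 39.3% (63 sites, 93.6 kb). Apart from Col2a1 and the type VI genes, whose values are given above, the other genes past 10% were Col9a2 (20.3%), Col15a1 (19.4%), Col9a1 (10.5%) and Col17a1 (10.3%). A site at the TSS did not imply a covered body. Col25a1, at 468.4 kb the longest of the genes with one, was covered to 0.532%, Col18a1 to 2.37%, Col14a1 to 4.21% and Col19a1 to 4.36%. The 5 genes with the most covered sequence held 77.0% of the 617.1 kb covered in all collagen genes.

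**Figure D3:**
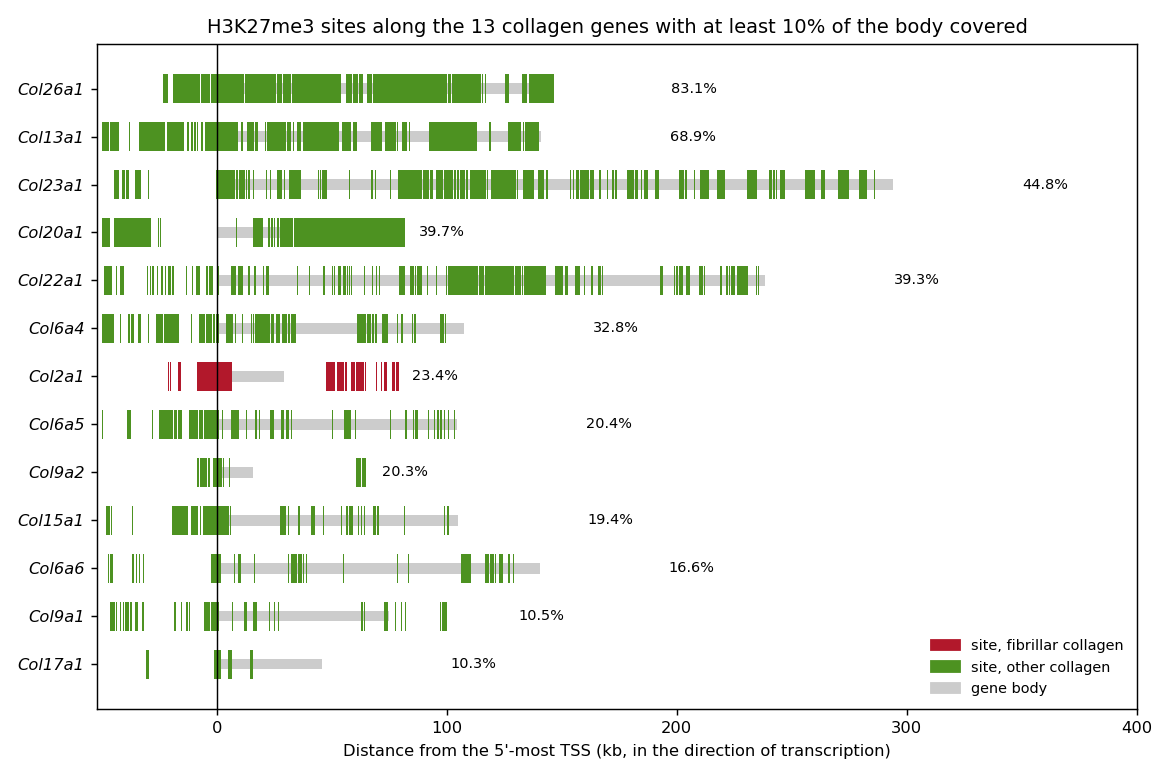
Sites (coloured) along the 13 collagen genes with at least 10% of the body covered (grey bars), drawn to scale in kb from the 5′-most TSS with 50 kb on either side, and with the percent covered at the right. Col26a1 and Col13a1 were covered over 83.1% and 68.9% of their length, Col23a1 and Col22a1 by many separate sites, and Col2a1 by 1 site over its start.

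The sites were not restricted to the start of the genes. Each gene was divided into 10 equal parts from start to end. Among the 16 collagen genes of at least 50 kb with a site near a TSS, mean cover was 33.2% in the first part, 19.6% in the second, 30.5% in the third, 25.3% in the sixth, 13.1% in the ninth and 19.8% in the tenth. For the 1687 genes of that length with a site near a TSS, the first part (33.7%) was close to that of the collagen genes, and the corresponding values were 20.9%, 19.4%, 17.4%, 16.1% and 15.5%. With the 5 shorter genes included, mean cover of the first part was 39.4% over all 21 collagen genes. The median over these 21 genes was 33.5% in the first part and 0 from the fifth to the eighth, where 9 or 10 of 21 genes had any covered base. Exon bases were covered to a higher percent than intron bases in 13 of the 24 members with a covered base. The same count was not made over all genes. Among these 13, Col6a2 and Col9a3 had only 106 bp and 202 bp covered. Col23a1 went the other way, with 18.2% of exon and 45.4% of intron bases covered.

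Several collagen genes without a site near a TSS had sites on either side. The 50 kb upstream and downstream of Col9a3 were covered to 46.5% and 51.5%, while its body was covered to 0.828%. The flanks of Col11a2 were covered to 41.0% and 50.3% and those of Col5a3 to 47.9% and 33.4%, and neither gene had a covered base. Col5a1 had 33.6% of the downstream and none of the upstream 50 kb covered. In contrast, Col1a1, Col1a2, Col3a1, Col5a2, Col8a1, Col10a1, Col11a1, Col12a1 and Col24a1 had no covered base within 50 kb on either side. Flanks were not scored over all autosomal protein-coding genes, so whether such covered or empty flanks are unusual is unknown. Col11a2 and Col16a1 are also annotated on sequences of other mouse strains in the reference (3 copies and 1 copy). Neither gene had a site near a TSS, and the part of these copies in that result was not tested.

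**Figure D4:**
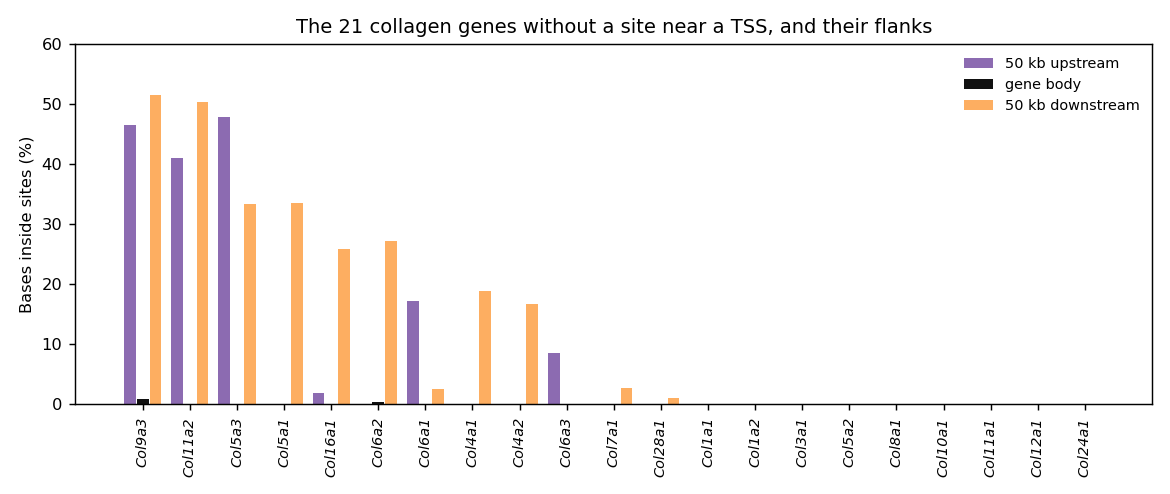
Percent of bases inside sites in the 50 kb upstream, the gene body and the 50 kb downstream (y axis) of the 21 collagen genes without a site within 1 kb of a TSS. Bars for the gene body reach at most 0.828% (Col9a3), while flanks reach 51.5%, and 9 genes have no covered base in either flank. Flanks were not scored over all genes.

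CpG content of the start region was compared because Polycomb marks are known from CpG-rich promoters. A TSS was called CpG-rich when the 1000 bp around it had at least 50% G and C and a ratio of observed to expected CpG of at least 0.6. By this measure 12 collagen genes had a CpG-rich TSS, and 8 of these (66.7%) had a site, against 24.2% of all autosomal genes with a CpG-rich TSS. Of the 30 collagen genes without a CpG-rich TSS, 13 (43.3%) had a site, against 29.9% of all such genes. The 4 CpG-rich genes without a site were Col5a1, Col4a1, Col4a2 and Col12a1, with observed to expected ratios of 0.823, 0.788, 0.784 and 0.756 at the most CpG-rich TSS. These values lay within the range of the 8 CpG-rich genes with a site, from 0.665 (Col2a1) to 0.876 (Col23a1). At the other end, Col9a1, Col20a1 and Col22a1 had sites at ratios of 0.183, 0.180 and 0.207. Col3a1, without a site, had a ratio of 0.184. The ratio therefore overlapped widely between collagen genes with and without a site.

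**Figure D5:**
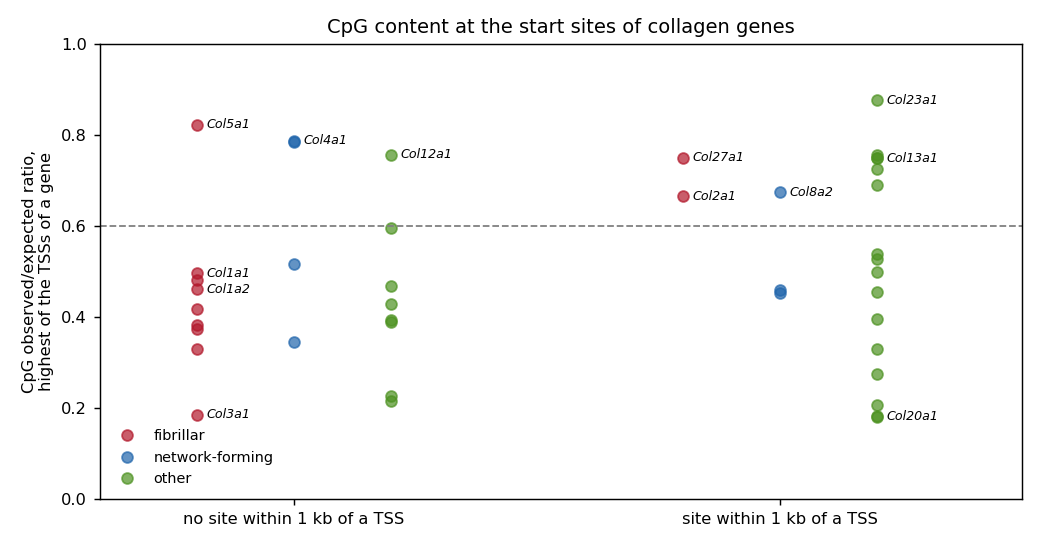
Ratio of observed to expected CpG in the 1000 bp around a TSS (y axis, highest value among the TSSs of a gene) for the collagen genes without (left) and with (right) a site within 1 kb of a TSS, one point per gene coloured by class, with a dashed line at 0.6. Points above and below the line occur on both sides, for example Col5a1 (0.823) without and Col20a1 (0.180) with a site.

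The genes whose products modify, export, cut, crosslink, bind or degrade collagen were taken as the pathway around the collagens. Sites near a TSS were found at 6 of 41 such genes (14.6%), below the background of 26.9% and the 50% of the collagen genes. Of 11 genes for prolyl and lysyl hydroxylation the prolyl hydroxylase gene P3h2 had one (1194 bp), and of 2 collagen galactosyltransferases Colgalt2 (11668 bp, 37.6% of the body covered). Of 8 genes for propeptide cleavage Adamts2 (1714 bp) and the protease gene Tll2 (12268 bp, 82.5% covered) had a site. Of 7 receptors the integrin gene Itga2 had one (1505 bp), and of 5 collagenases Mmp9 (14217 bp, 87.3% covered). None of the 5 lysyl oxidase genes (Lox and Loxl1 to Loxl4) and none of the 3 genes for folding and export (Serpinh1, P4hb and Mia3) had a site near a TSS. Median body cover was 0 over all 41 genes.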

How the data were processed

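H3K27me3 ChIP-seq had been performed with 8 H3K27me3 and 4 input libraries of iMEF cells. Per the labels and methods, the authors trimmed reads with Trim Galore and called broad peaks with MACS. The submitters' processing notes name BWA, SAMtools, MACS2, deepTools, DESeq2 and the build mm10, without versions. The deposited file holds positions (chromosome, start and end), an other unit with no count, score or p-value, pooled over all samples. Its starts were read as counted from 0, since the smallest difference of end and start was 200, and are printed counted from 1. No sites overlapped. There were 0 columns of per-sample values left unused.

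Sites were joined to GENCODE M21 genes and TSSs (Python 3.11.15, NumPy 2.4.6), and figures were drawn with Matplotlib 3.10.9. A gene was counted when a site lay within 1 kb of any TSS. Cover is the percent of bases from gene start to gene end inside sites. GC and CpG were computed from GRCm38.p6 in the 1000 bp around each TSS. The interval functions were tested on simulated data against base-by-base counting. Promoter windows came from the RefSeq table for GRCm38.p6, in which 33 of the 42 genes had an entry. Col2a1 and Col26a1 had none, so the next widest member of each class was printed.

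The planned tests between time points needed values per library and were not run. The methods state a planned minimum of raw reads, but the depth obtained per sample is unknown here. No counting interval or detection floor is therefore given. Intervals of medians treat genes as independent draws and hold no replicate error. Every member was accounted for. By rule, values were given for all genes with a site near a TSS, all with at least 10% of the body covered, 8 chief fibroblast collagens, 4 neighbouring pairs and the genes nearest to the 1 kb limit. Values of the remaining members, and the neighbours Col9a3 with Col20a1 and Col9a1 with Col19a1, were added after they were seen. Members, classes, gene lists and alternatives were chosen with earlier results of these data known. Alternatives changed the TSS window, the TSSs used, the width and joining of sites, the gene span and the class of type VI.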

Additional observations from a re-analysis of the deposited data

How the results depend on the processing

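Of 90 alternative values, 85 stayed within 1.5 times the main count or within the order-statistic interval of the main median. This rule was lenient for medians, with intervals of 0 to 5.21% over all members and 0.380 to 20.4% in other collagens. The tally also includes the alternatives for the background percent, so it is a weak measure of stability. Requiring the TSS base itself to lie in a site left 21 collagen genes, and windows of 3 kb and 5 kb gave 22, by addition of Col24a1, whereas the background went from 21.5% to 33.5% and 38.3%. The 5′-most TSS gave 19 genes, and sites of at least 500 bp or 1000 bp and joined sites gave 21, with a background of 25% for sites of at least 500 bp and 22.6% for those of at least 1000 bp. Measured from site centres, 14 collagen genes had one within 1 kb of a TSS, among them 1 fibrillar and 10 other collagens, since at Col27a1, Col13a1, Col23a1, Col26a1, Col6a5, Col18a1 and Col19a1 the centres lay farther from every TSS, and the background by this measure was 18.3%. Counted as different sites in place of genes, there were 39 in all and 35 at other collagens. With type VI counted as network-forming, 6 of 13 network-forming and 13 of 18 other genes had a site. The number of genes with at least 10% cover ranged from 10, without the 1 kb around TSSs, to 13, and was 9 among genes of at least 50 kb, an alternative added after seeing the data. The median cover of all 42 collagen genes ranged from 0.293%, without the 1 kb around TSSs, to 0.879% with joined sites, and that of network-forming collagens was 0 except with type VI included (0.380%). The median cover of other collagens ranged from 4.82% to 11.6%. The fibrillar median was 0 under every alternative run for it. With no covered base in 8 of the 11 fibrillar genes, none of these alternatives could move it.

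No paired analysis was possible because the list holds no value per library, and for the same reason no replicate was left out. The depth obtained and the calling threshold are unknown, so a missing site does not show that the mark is absent. The pooled list does not tell at which time point a site was called.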

Other observations

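On chromosome 2, Col9a3 and Col20a1 lie 364.3 kb apart in the same direction, and 55.6% of the sequence between them was inside 45 sites. The body of Col9a3 was covered to 0.828% and that of Col20a1 to 39.7%.

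Col9a1 and Col19a1 converge on chromosome 1 with 9.21 kb between them. Both had a site over their 5′-most TSS, and 14.4% of the sequence between their ends was covered. For Col13a1, 70.9% of the 50 kb upstream was covered, close to the 68.9% of its body. For Col27a1 the corresponding values were 77.6% and 0.977%, so the covered sequence ended near its start.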
